A study of Mus musculus with 7 samples.

Results

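Binding of PU.1 and MITF was examined at the PU.1 gene itself, Spi1, and at 6 genes of related ETS factors, Spib, Ets2, Fli1, Etv3, Elf1 and Elf4, out of 22367 protein-coding genes. A ChIP-Seq peak was assigned to a gene when its center lay in the gene or within 50 kb of either end on mm9, and peaks of different lists that overlapped were joined into 1 site. This gave 139 sites at the 7 genes, of 102744 sites in all. Every one of the 139 sites held a PU.1 peak, and 13 of them also held a MITF peak. Nearly all sites did so elsewhere too: 102276 of the 102744 held a PU.1 peak. A MITF peak was at 7642 of them, and 93.9% of these also held PU.1. Bone marrow of C57BLACK6 mice aged 4 to 6 weeks was kept for 3 days in CSF1 at 50 ng/ml to give myeloid precursors (MPs). RANKL at 100 ng/ml was given for 36 h or for 72 h, and the 72 h libraries are those of osteoclasts (OCs). ChIP used 5 µg of an antibody made in the laboratory to PU.1 or to MITF at each of the 3 times, and pre-immune IgG in MPs only. Each of these 7 conditions is 1 library without a replicate, so all errors given are counting errors and all tests compare libraries. The lists carry no RNA levels, so the identity of the cells was not checked here, and binding near a gene does not show that the gene is its target.

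PU.1, encoded by Spi1, is an ETS factor required for the myeloid lineage, from which macrophages and osteoclasts arise. ETS proteins share a DNA-binding domain that recognises a GGAA core, and PU.1 favors a purine-rich form of it, GAGGAA. Spi1 is known for autoregulation, in which PU.1 binds its own promoter and an upstream regulatory element. MITF belongs to another family, works in osteoclasts and pigment cells, and recognises E-boxes such as TCACGTG and TCATGTG.

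The sequences under the PU.1 peaks that bear on autoregulation of Spi1 are shown first. They are read 5′ to 3′ on the strand of the gene, from mm9, as up to 150 bases around the center of the highest peak with annotated exon bases left out. Distances are from the transcription start site (TSS) of the coding transcript of Spi1 at position 90936253 of chromosome 2. Capitals mark GAGGAA on either strand where a sequence holds it (TTCCTC on the strand shown), and otherwise the GGAA core (TTCC on the strand shown).
Spi1 -14.8 kb, chr2:90921395-90921544 (plus strand): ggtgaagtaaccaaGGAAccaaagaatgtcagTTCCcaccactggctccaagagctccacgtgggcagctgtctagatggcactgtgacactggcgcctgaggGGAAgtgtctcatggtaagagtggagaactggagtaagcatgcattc
Spi1 -13.7 kb, chr2:90922430-90922546 (plus strand): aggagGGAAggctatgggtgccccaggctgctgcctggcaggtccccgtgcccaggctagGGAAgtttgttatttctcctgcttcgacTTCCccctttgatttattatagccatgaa
Spi1 -13.0 kb, chr2:90923162-90923311 (plus strand): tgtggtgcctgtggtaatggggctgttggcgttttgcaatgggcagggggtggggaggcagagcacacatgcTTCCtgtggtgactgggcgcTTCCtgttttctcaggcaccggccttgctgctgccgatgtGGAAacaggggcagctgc
Spi1 -11.4 kb, chr2:90924792-90924941 (plus strand): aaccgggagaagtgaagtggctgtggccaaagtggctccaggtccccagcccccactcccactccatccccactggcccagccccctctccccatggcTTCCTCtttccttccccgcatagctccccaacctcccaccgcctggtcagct
Spi1 promoter, chr2:90936193-90936252 (plus strand): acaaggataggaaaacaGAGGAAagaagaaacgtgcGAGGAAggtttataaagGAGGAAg
The 60 bases before the Spi1 TSS held GAGGAA 3 times. Of the 4 upstream sites, the -11.4 kb site held it once and the others held the GGAA core without it. The -13.0 kb window also held TGTGGT, the core letters recognised by RUNX factors, 3 times. These matches are letters only and were not tested for binding.

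A peak score counts the sequenced fragments (tags) under a peak after HOMER brings all libraries to 1 common size. In these units 1 tag was worth 1.71 score units in PU.1 MP, 1.48 in PU.1 36 h, 1.47 in PU.1 OC, 1.04 in MITF MP, 0.973 in MITF 36 h, 1.14 in MITF OC and 3.20 in IgG. The lists held 76243, 71941 and 77072 PU.1 peaks, 5413, 3540 and 4443 MITF peaks (MP, 36 h and OC) and 349 IgG peaks. The lowest listed scores were 10.2, 10.3 and 10.3 for PU.1, 9.3, 9.7 and 9.1 for MITF and 22.4 for IgG. A site missing from a list was not called there, which shows neither that it was unbound nor that it lay below that score. At Fli1, the site 70.7 kb after the TSS scored 64.8 in MPs and 67.5 in OCs but was not listed at 36 h. The median width of PU.1 peaks was 190 bp at 36 h and 150 bp in MPs and OCs, which were also the largest widths of these lists, and MITF peaks at 36 h were 150 to 1387 bp wide, so that scores at 36 h counted tags over wider stretches. No IgG peak lay in any of the 7 windows. With only 349 IgG peaks in the whole genome and a lowest score of 22.4, this is no check on the PU.1 and MITF peaks there.

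PU.1 occupied the Spi1 locus (chr2:90922547-90955913, plus strand) at 17 sites in the window, 13 of them in all 3 lists. The strongest upstream sites had higher scores than the promoter at each time, while the weakest, at -11.4 kb, was near the promoter in OCs (47.0 against 48.5). Values are given as the score with its 95% Poisson interval. At -14.8 kb PU.1 scored 116.0 (90.1 to 147.1) in MPs, 124.2 (99.0 to 153.7) at 36 h and 132.2 (106.3 to 162.4) in OCs. This was the strongest of the 4 sites that lay 10 to 20 kb upstream in all 3 libraries. The -13.0 kb site scored 93.8 (70.7 to 122.1), 110.9 (87.2 to 139.0) and 101.3 (78.8 to 128.2). The -13.7 kb site scored 58.0 (40.2 to 81.0), 65.0 (47.3 to 87.3) and 88.1 (67.2 to 113.4), and its OC score lay above the other 2 with overlapping intervals. The weakest of the 4, at -11.4 kb, scored 42.6 (27.6 to 63.0), 53.2 (37.3 to 73.7) and 47.0 (32.1 to 66.3). A further site at -9.6 kb fell just short of the 10 kb limit and scored 54.6, 59.1 and 63.1. The annotation also starts longer Spi1 transcripts 43 bp from the -13.7 kb site, so the -13.7 and -13.0 kb sites were upstream of the promoter used here but within 1 kb of a second annotated start.

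At the Spi1 promoter, within 1 kb of the TSS, 2 PU.1 peaks were listed at each time. The peak on the TSS scored 30.7 (18.2 to 48.5) in MPs, 45.8 (31.1 to 65.0) at 36 h and 48.5 (33.4 to 68.1) in OCs. The second, 0.6 kb into the gene, scored 22.2, 25.1 and 23.5. The MP score was the lowest of the 3 at both promoter peaks, and all intervals overlapped. In tags, the strongest upstream peak was 3.78 times the strongest promoter peak in MPs (95% exact interval 2.22 to 6.75), 2.71 times at 36 h (1.78 to 4.23) and 2.73 times in OCs (1.81 to 4.20). Whether the promoter and the upstream element moved differently over time was tested by a two-sided Fisher's exact test on the tags of these peaks. There were 18 tags in MPs, 31 at 36 h and 33 in OCs at the promoter, and 68, 84 and 90 upstream. From MPs to 36 h the promoter minus upstream difference in log2 change was 0.48 (Fisher's exact test, p = 0.407, adjusted p = 0.620). From MPs to OCs it was 0.47 (Fisher's exact test, p = 0.414, adjusted p = 0.620), and from 36 h to OCs -0.01 (Fisher's exact test, p = 1, adjusted p = 1). No difference between promoter and upstream element was thus detectable at this depth, and the adjustment ran over the 3 PU.1 pairs since no MITF peak lay at the promoter.

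**Figure D1:**
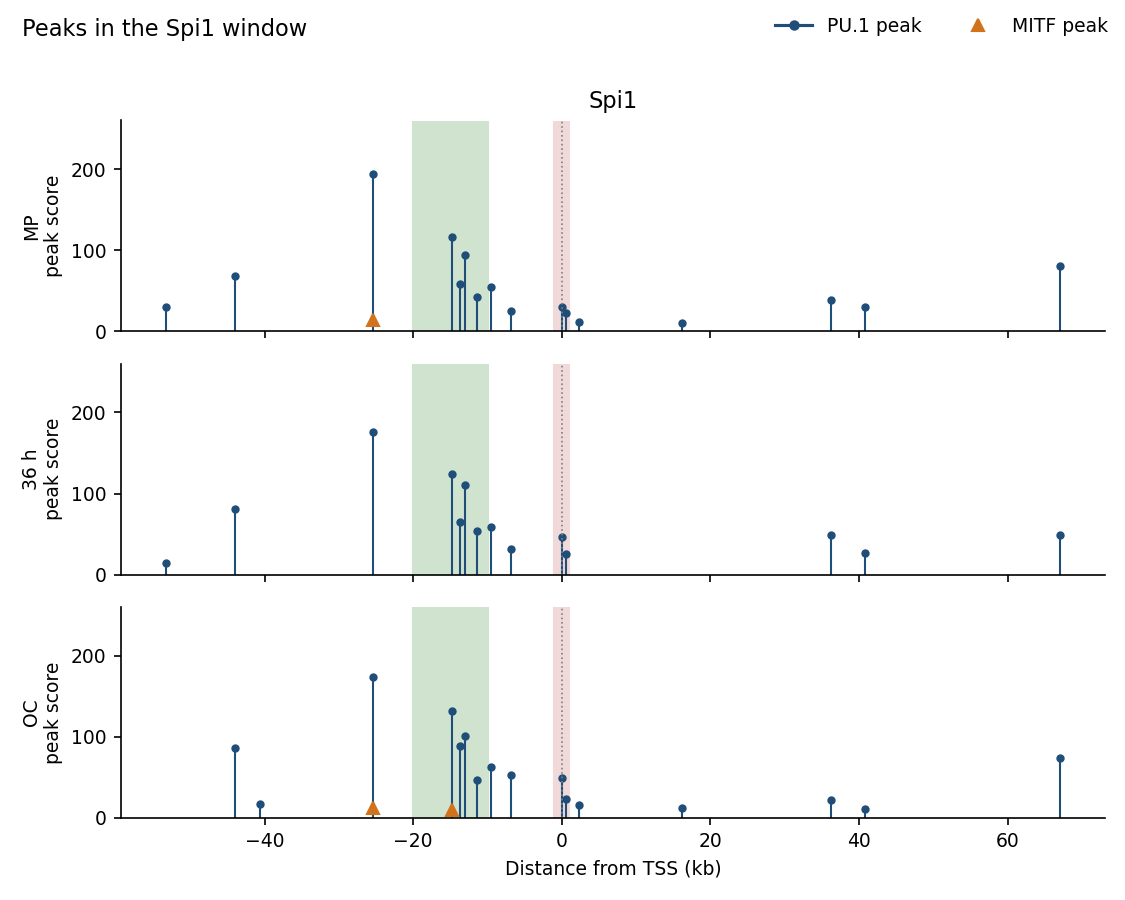
Peak scores in the Spi1 window against the distance from the coding TSS in kb, with 1 panel each for MP, 36 h and OC. Stems with circles are PU.1 peaks, triangles MITF peaks; green shading marks 10 to 20 kb upstream and red shading the 1 kb on each side of the TSS. The tallest stem, at -25.4 kb, lies next to the Slc39a13 promoter, and 3 of the 4 stems in the green area are taller than the promoter peaks at each time.

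**Figure D2:**
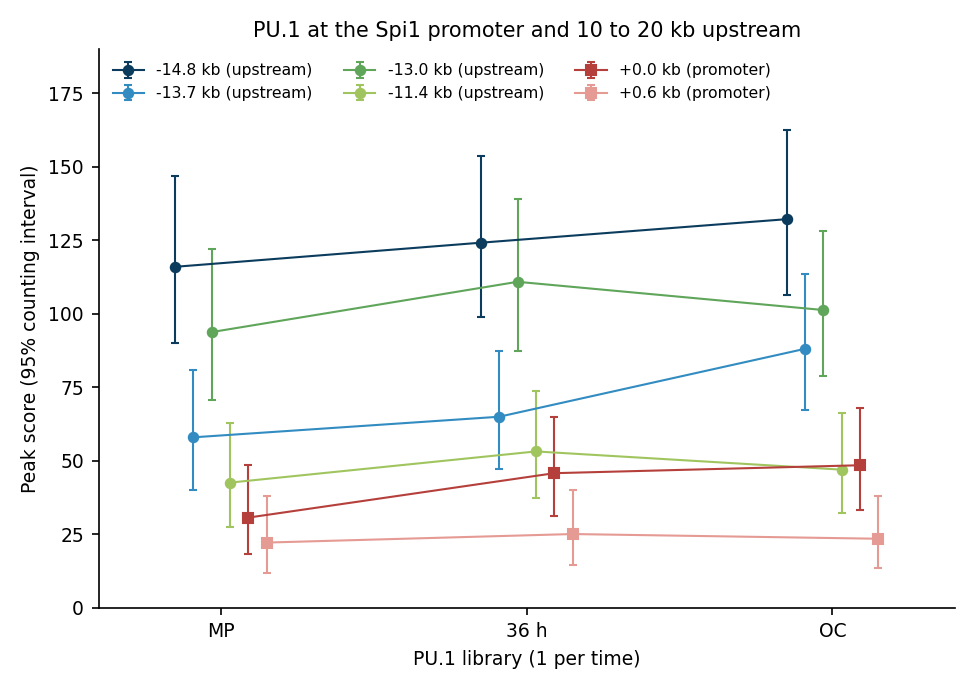
PU.1 peak score at the 4 upstream sites (circles) and 2 promoter peaks (squares) of Spi1 in the MP, 36 h and OC libraries, with 95% Poisson intervals of the tags. The intervals of each site overlap between the 3 times.

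The highest PU.1 score in the Spi1 window was at -25.4 kb, with 194.5 (160.4 to 233.6) in MPs, 175.9 (145.7 to 210.5) at 36 h and 173.3 (143.4 to 207.5) in OCs. This site lay 293 bp from the TSS of Slc39a13, a zinc transporter gene, which is the nearer gene. It also held MITF peaks of 13.5 in MPs and 12.6 in OCs. The other MITF peak in the window was at -14.8 kb in OCs, with 9.1, the lowest score in that list. The nearest protein-coding TSS belonged to Spi1 for 9 of the 17 sites, and to Rapsn, Psmc3, Slc39a13, Mybpc3 or Madd for the others. None of the Spi1 sites passed the test for a change over time. The site at -6.8 kb, in an intron of the longer transcripts, had the largest gain from MPs to OCs, with scores of 25.6, 31.0 and 52.9 and a log2 change of 1.07 (0.17 to 2.05). In the exact binomial test against all pairs its p was 0.0163, and the adjusted p was 0.433. The largest fall was larger in size, at +40.8 kb, where the nearest TSS was that of Mybpc3. Its scores were 30.7, 26.6 and 10.3, with a log2 change of -1.56 (-3.06 to -0.23) from MPs to OCs. The exact binomial test gave p = 0.0147 and an adjusted p of 0.420 there. From MPs to OCs 11 of 15 Spi1 pairs had a log2 change above 0 and the median was 0.21, against 0.03 for the median gene among 11650 genes with at least 5 pairs, of which the middle 90% ran from -0.33 to 0.40.

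The other members differed in how much PU.1 they carried. The number of PU.1 sites was 32 at Fli1, 28 at Elf1, 20 at Etv3, 17 at Spi1, 16 at Elf4, 14 at Spib and 12 at Ets2. The order depends on the limits set. With only peaks of at least 2 times the lowest score Elf1 had 14, Spib 5 and Ets2 4, against 26 at Fli1 and 15 at Etv3. Counting sites whose nearest TSS is that of the member, Elf1 had 15, Spi1 9 and Spib 1. Windows of 25 kb gave 5 at Spib, and windows of 100 kb gave 27 at Spi1, 22 at Spib, 22 at Ets2 and 29 at Elf4. Windows differ in length, and per 100 kb Etv3 had 17.4 sites, Fli1 14.6, Elf1 13.9, Spib 13.2, Spi1 12.7, Elf4 10.5 and Ets2 10.1. Over all protein-coding genes the median was 6.65 per 100 kb and the middle 50% ran from 2.29 to 10.8. All 7 members were thus above the median, and between 71.6% (Ets2) and 95.6% (Etv3) of genes had a lower density. Of the 139 sites, 80 (57.6%, 95% exact interval 48.9 to 65.9) were in all 3 PU.1 lists, against 50.5% of all PU.1 sites. Another 27 were in 2 lists and 32 in 1. By position, 75 of the 139 lay in introns, 53 between genes and 11 in exons, and the nearest protein-coding TSS was that of the member for 96 (69.1%, 60.7 to 76.6). Sites in 1 list were weak, with a median highest score of 13.3, against 53.9 for sites in all 3 lists. Where only peaks that scored at least 2 times the lowest of their list were used, 89 PU.1 sites and 3 MITF sites were left.

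**Figure D3:**
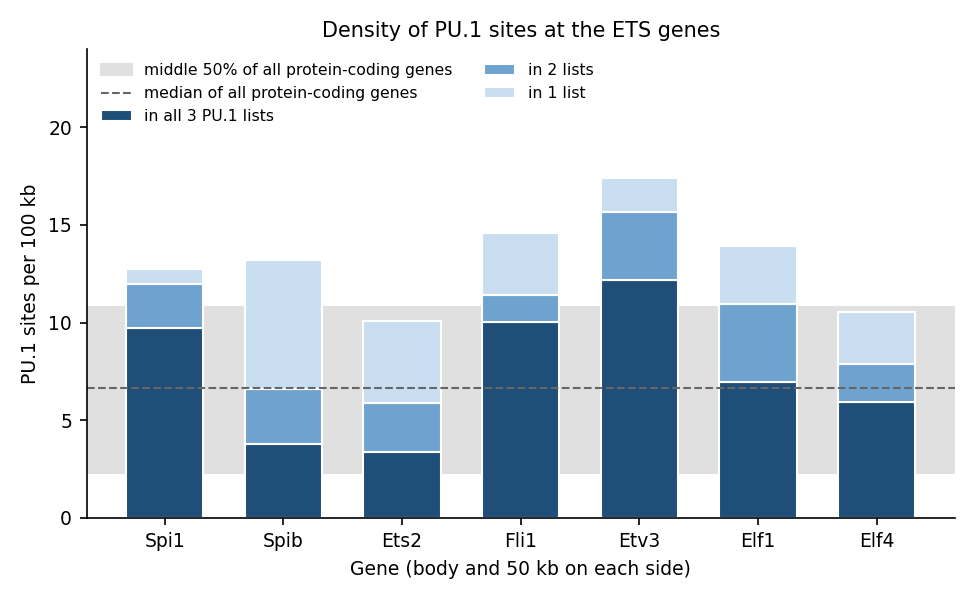
PU.1 sites per 100 kb of window at each gene, stacked by whether a site was in all 3 PU.1 lists, in 2 or in 1, as bars from 0. The dashed line is the median of all protein-coding genes, 6.65, and the grey band their middle 50%; every bar ends above the line, and Spib and Ets2 have the shortest dark parts.

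Fli1, a regulator of megakaryocyte and endothelial genes that is also active in blood progenitors, carried the highest PU.1 score of the 7 (chr9:32229793-32348974, minus strand). Its highest PU.1 site is shown. It was 1 of 3 Fli1 sites that held PU.1 and MITF peaks in all 3 lists of each factor. Capitals mark GAGGAA on either strand.
Fli1 +68.8 kb, chr9:32280081-32280230 (minus strand): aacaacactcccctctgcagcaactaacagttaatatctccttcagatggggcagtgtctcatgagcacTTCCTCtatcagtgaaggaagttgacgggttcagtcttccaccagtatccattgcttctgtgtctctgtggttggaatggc
GAGGAA lay 3 bp from the center of the highest PU.1 peak there. The site at +68.8 kb, in an intron, scored 238.8 (200.9 to 281.8) in MPs, 206.9 (174.1 to 244.2) at 36 h and 232.0 (197.2 to 271.1) in OCs. It ranked within the top 0.78% of each PU.1 list, and its 3 scores overlapped. The intron site at +33.6 kb was close behind with 218.3, 183.3 and 214.4. The promoter site, 74 bp before the TSS, scored 107.5 (82.6 to 137.5), 119.7 (95.1 to 148.8) and 105.7 (82.7 to 133.1). From MPs to OCs the log2 change was -0.02 (-0.36 to 0.32) at +68.8 kb and 0.00 (-0.51 to 0.51) at the promoter, and both intervals leave out a 2-fold change. At Fli1 6 sites scored at least 100 in MPs, against 3 at Elf1, 2 each at Spi1 and Etv3, 1 at Elf4 and 0 at Spib and Ets2. Of these, the site at +74.8 kb scored 155.2, 78.3 and 118.9, and its log2 change of -0.86 (-1.38 to -0.36) from MPs to 36 h had an adjusted p of 0.0387 in the exact binomial test but was under the 2-fold limit.

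Etv3, a repressor linked to growth arrest of differentiating macrophages (chr3:87329329-87344078, plus strand), had its strongest site 4.1 kb before the TSS. PU.1 scored 228.6 (191.5 to 270.7) in MPs, 199.5 (167.3 to 236.2) at 36 h and 190.9 (159.5 to 226.7) in OCs there. The next in MPs, at -37.3 kb, went from 110.9 (85.6 to 141.3) to 47.3 (32.4 to 66.8) and 57.3 (40.7 to 78.3). The MP interval did not overlap the other 2. The opposite order was seen at +36.3 kb, with 27.3 in MPs, 57.6 at 36 h and 55.8 in OCs, a log2 change of 1.20 (0.33 to 2.14) from MPs to 36 h that did not pass the test (exact binomial test, adjusted p = 0.138). No PU.1 peak lay within 1 kb of an Etv3 TSS; the nearest, at -1.3 kb, scored 39.2, 42.9 and 39.6.

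Elf1, an activator in lymphoid and other blood cells (chr14:79881001-79982283, plus strand), has 2 annotated coding TSSs. PU.1 was strongest 7 bp from the second, at +34.5 kb, with 197.9 (163.5 to 237.3) in MPs, 137.5 (111.0 to 168.4) at 36 h and 135.1 (108.9 to 165.7) in OCs. A neighbor at +35.2 kb scored 73.3, 73.9 and 80.8, and the site at the first TSS only 23.9, 22.2 and 33.8. The intron site at +68.5 kb scored 184.2, 178.9 and 143.9, below the +34.5 kb site in MPs and above it at the other times, with overlapping intervals at each. The site at +81.3 kb, in an intron, went from 117.7 (91.6 to 149.0) to 53.2 (37.3 to 73.7) and 63.1 (45.7 to 85.1). Elf4, a factor of lymphoid and interferon responses (chrX:45764223-45816309, minus strand), showed a similar order at +18.2 kb, with 100.6 (76.6 to 129.8), 48.8 (33.6 to 68.5) and 51.4 (35.8 to 71.5). Its other high site, at +57.9 kb, lay in an intron of Bcorl1 and scored 93.8, 71.0 and 99.9. The Elf4 promoter site had 11.9, 16.3 and 22.0 at the first TSS, and a site near the second was listed in OCs only, at 10.3.

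**Figure D4:**
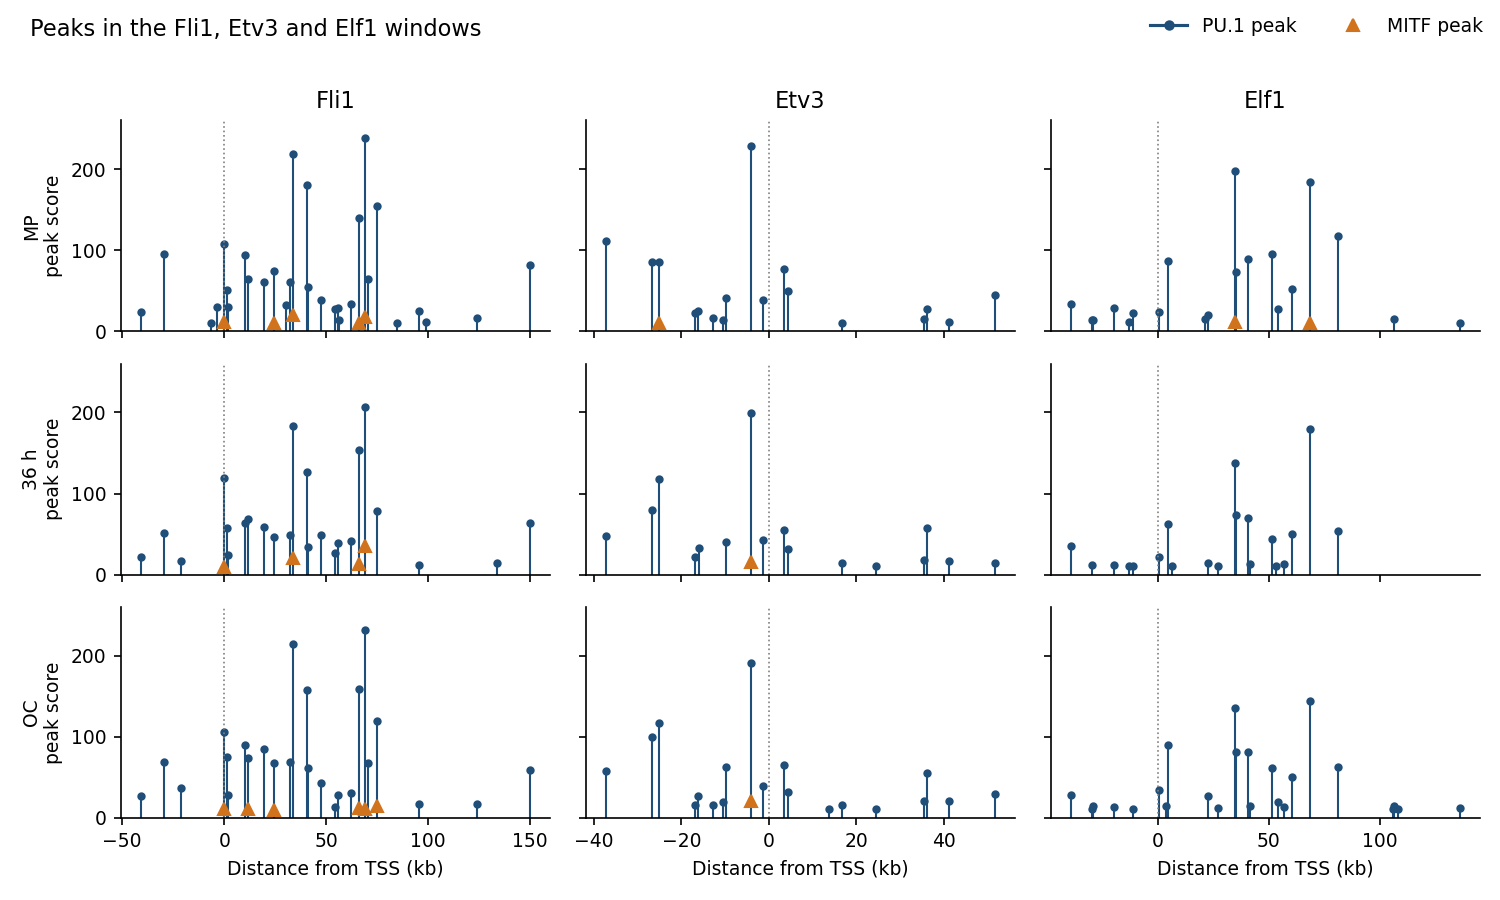
Peak scores at Fli1, Etv3 and Elf1 (columns) against the distance from the outermost coding TSS in kb, for MP, 36 h and OC (rows). Stems with circles are PU.1 peaks and triangles MITF peaks; the tallest PU.1 stem of each panel scores between 143.9 and 238.8, and the triangles, between 9.1 and 35.0, mostly sit on tall stems.

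Ets2 and Spib had no site that scored 100 in any list. Ets2, an ETS factor activated by the Ras and MAP kinase pathway (chr16:95923682-95942658, plus strand), had its strongest site 26.8 kb after the TSS, beyond the end of the gene. PU.1 scored 95.5 (72.2 to 124.0), 75.4 (56.1 to 99.1) and 72.0 (53.2 to 95.1) there. All 12 sites had the TSS of Ets2 as the nearest, and the only one within 1 kb of it was listed in MPs only, at 10.2, the lowest score of that list. Spib, the closest relative of PU.1 and best known from B cells and plasmacytoid dendritic cells (chr7:51781365-51787441, minus strand), had 14 sites, and only 1 of them had Spib as the nearest gene. Its highest, at +35.5 kb, scored 29.0 (16.9 to 46.4), 37.0 (23.9 to 54.6) and 39.6 (26.1 to 57.7) and lay 3 bp from the TSS of 2310044H10Rik. The next, at -22.0 kb, scored 27.3, 37.0 and 36.7 and lay 95 bp from the TSS of Nr1h2, a liver X receptor gene. No Spib site exceeded a score of 39.6 in any list, and none lay within 1 kb of its TSS.

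Over the 7 members, 2 of 84 PU.1 pairs passed the test for a change from MPs to 36 h (exact binomial test against the median ratio of all pairs, adjusted p under 0.05 and at least 2-fold), beside 1.05% of all 56335 pairs. Both were lower at 36 h, as were 401 of the 593 calls over all pairs. Only sites listed at both times form a pair, so sites gained by or lost from a list were not tested. Fli1 +30.4 kb, for example, scored 32.4 in MPs and was in no other list. An unadjusted p under 0.05 was found for 9 of the 84 member pairs, beside 10.9% of all pairs. The -37.3 kb site of Etv3 fell by 1.10 on the log2 scale (95% interval -1.76 to -0.47, adjusted p = 0.0332 in the exact binomial test), and the +81.3 kb site of Elf1 fell by 1.02 (-1.64 to -0.42, adjusted p = 0.0446). Their sequences, on the strand of the gene, held no GAGGAA, and capitals mark the GGAA core.
Etv3 -37.3 kb, chr3:87291957-87292106 (plus strand): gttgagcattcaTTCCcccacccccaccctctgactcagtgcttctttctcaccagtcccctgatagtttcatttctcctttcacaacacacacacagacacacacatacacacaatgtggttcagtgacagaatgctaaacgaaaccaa
Elf1 +81.3 kb, chr14:79962216-79962365 (plus strand): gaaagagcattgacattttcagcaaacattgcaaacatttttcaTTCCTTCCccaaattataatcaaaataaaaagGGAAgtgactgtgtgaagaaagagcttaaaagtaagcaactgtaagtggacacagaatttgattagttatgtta
At both sites the OC score was close to the 36 h score. The log2 changes from MPs to OCs, where both peaks were 150 bp wide, were -0.93 (-1.54 to -0.34) and -0.87 (-1.46 to -0.30), and the adjusted p-values of 0.176 and 0.185 in the exact binomial test did not pass. The adjustment runs over each pair of lists separately. From 36 h to OCs the changes at these sites were 0.17 (-0.54 to 0.89) and 0.14 (-0.53 to 0.82). From MPs to OCs 0 of 95 member pairs passed, beside 0.156% of all 60099 pairs, and 9 of the 95 had an unadjusted p under 0.05, beside 7.84% of all pairs. From 36 h to OCs 0 of 88 passed, beside 0.0707% of all 58008 pairs, and 5 had an unadjusted p under 0.05, beside 6.45% of all pairs. By fold alone, 5, 6 and 4 member pairs were past 2-fold in the 3 comparisons, beside 7.43%, 5.37% and 4.62% of all pairs. With the ratio of library sizes as the expectation instead of the median ratio, 4 member pairs passed from MPs to 36 h, and with the higher score threshold 1 passed. The library size ratio was 1.15 and the median ratio 1.06, so this setting lowers the log2 change of every pair. The shares of all pairs that passed at these settings are not given here, so the counts are not read as a trait of the members.

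**Figure D5:**
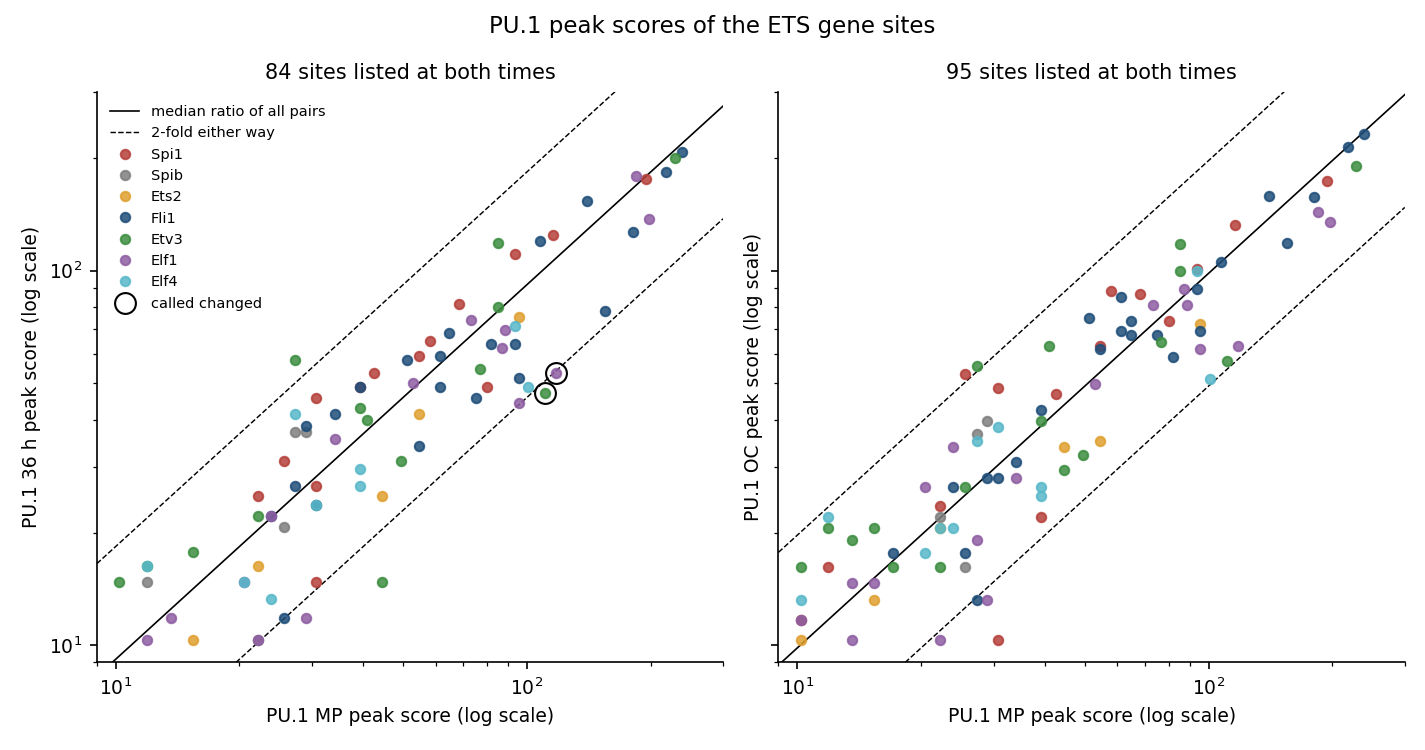
PU.1 peak score at 36 h (left) and in OCs (right) against that in MPs, on log scales, for the member sites listed at both times. The solid line is the median ratio of all pairs, dashed lines are 2-fold either way and rings mark the 2 called sites, which lie at the lower dashed line on the left.

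By gene, the median log2 change of PU.1 from MPs to OCs was 0.23 at Spib (4 pairs), 0.21 at Spi1 (15), 0.07 at Etv3 (17), -0.01 at Fli1 (24), -0.09 at Elf4 (11), -0.19 at Elf1 (18) and -0.28 at Ets2 (6). The 6 genes with at least 5 pairs lay between -0.33 and 0.40, the limits of the middle 90% of gene medians, and differences between genes were not tested. At Ets2, 5 of 6 pairs were lower in OCs, and at Elf1 12 of 18.

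MITF peaks were found at 4 of the 7 genes: 7 sites at Fli1 and 2 each at Spi1, Etv3 and Elf1. Spib, Ets2 and Elf4 had none in any list. Over all protein-coding genes 40.2% had at least 1 MITF site, with a median of 0 and a 95th percentile of 3. Of the 19 other ETS genes 6 had a MITF site. Windows differ in length, and these counts were not tested. By time, 9 of 112 PU.1 sites in MPs (8.04%, 95% exact interval 3.74 to 14.7), 5 of 101 at 36 h (4.95%, 1.63 to 11.2) and 9 of 113 in OCs (7.96%, 3.71 to 14.6) also held a MITF peak of the same time. Over all sites the shares were 6.96%, 4.62% and 5.39%, inside these intervals. Fli1 held the only 3 member sites with MITF in all 3 lists. At its promoter MITF scored 11.4 (5.70 to 20.4), 9.7 (4.67 to 17.9) and 11.4 (5.48 to 21.0), at +66.2 kb 10.4, 13.6 and 12.6, and at +68.8 kb 17.7 (10.3 to 28.3), 35.0 (24.5 to 48.5) and 10.3 (4.70 to 19.5). The 36 h peak at +68.8 kb was 210 bp wide against 150 bp in the other lists. Another 4 sites had MITF in 2 lists. These were Fli1 +33.6 kb with 19.7 in MPs and 20.4 at 36 h, Fli1 +24.5 kb with 10.4 in MPs and 9.1 in OCs, Etv3 -4.1 kb with 15.6 at 36 h and 20.6 in OCs, and Spi1 -25.4 kb. At the 2 strongest Elf1 sites MITF was listed in MPs only, at 11.4 and 10.4, which are near the lowest listed score. Among sites with a PU.1 score of at least 100, a limit chosen after the values were seen, 7 of 14 in MPs, 5 of 12 at 36 h and 7 of 13 in OCs held a MITF peak, against 2 of 98, 0 of 89 (which allows up to 4.06% by the exact interval) and 2 of 100 below it. Over all sites the shares above that limit were 55.7%, 44.7% and 45.7%, which lie inside the exact intervals of the members. Below it they were 1.6%, 1.2% and 1.6%, also inside those of the members, so the contrast is not particular to the members.

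None of the member MITF sites passed the test for a change between times. Pairs were few, 4 from MPs to 36 h, 5 from MPs to OCs and 4 from 36 h to OCs. The calls among all MITF pairs were 15.2%, 0% and 9.66%, and of the member pairs 0, 0 and 1 had an unadjusted p under 0.05, beside 29.6%, 3.23% and 25.2% of all pairs. The pair with the lowest p was Etv3 -4.1 kb from 36 h to OCs, with a log2 change of 1.25 (0.20 to 2.32) against a median tag ratio of all pairs of 0.473, where library sizes alone give 0.853 (exact binomial test, adjusted p = 0.0937). Its scores of 15.6 and 20.6, both from peaks of 150 bp, differed by only 0.40 on the log2 scale. Where only pairs of 150 bp peaks were used, 0 of 3 member pairs were past 2-fold. With the ratio of library sizes as the expectation, 1 member pair passed from 36 h to OCs, which was not that of Etv3 but Fli1 +68.8 kb, where MITF fell by 1.77 on the log2 scale (exact binomial test, adjusted p = 0.0018) between peaks of 210 and 150 bp. Against the median ratio of all pairs the same change was -0.92 (-2.16 to 0.16) and did not pass (exact binomial test, adjusted p = 0.298). Part of the fall was thus common to the list, and the share of all pairs that passed with library sizes is not given here.

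In the 150 bases around the highest PU.1 peak, GAGGAA was present at 68 of 139 member sites (48.9%, 95% exact interval 40.4 to 57.5), against 54.0% of all PU.1 sites. By gene it ranged from 9 of 28 at Elf1 and 6 of 17 at Spi1 to 11 of 16 at Elf4. Among member sites that scored at least 100 it was at 8 of 16, against 66.0% of all such sites, which lies inside the interval of 24.7% to 75.3%. TGTGGT was present at 28 sites (20.1%, 13.8 to 27.8), against 13.0% of all PU.1 sites, a share just below that interval. Across genes its share ran from 1 of 12 at Ets2 to 7 of 17 at Spi1. Several motifs were counted, with no test and no allowance for their number. TGANTCA, the letters of an AP-1 site, was at 9 (6.47%, 3.00 to 11.9), against 9.39%. The E-box TCACGTG was in 0 of the 13 member MITF sites, which allows a share of up to 24.7% by the exact interval, and TCATGTG in 1. E-boxes with other flanking letters were not sought. The Spi1 -14.8 kb sequence printed above holds CACGTG without the leading T on either strand, so these counts do not show that E-boxes are absent. Over all MITF sites these were in 1.09% and 3.62%, close to the 1.17% and 3.36% of all PU.1 sites. All member sites held at least 1 GGAA, which every GAGGAA contains, within the 150 bases, as did 98.9% of all PU.1 sites.

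Promoter binding differed among the members. A PU.1 peak lay within 1 kb of a coding TSS at 5 of the 7 members in MPs (Spi1, Ets2, Fli1, Elf1 and Elf4) and at 4 at 36 h and in OCs, where Ets2 had none. Over all protein-coding genes the shares were 31.0%, 33.0% and 33.6%. MITF lay at the promoters of Fli1 and Elf1 in MPs and of Fli1 alone at 36 h and in OCs, against 1.71%, 0.988% and 1.28% of all genes. Of 19 other ETS genes, 8, 7 and 7 had a PU.1 promoter peak in MPs, at 36 h and in OCs, and 0 had a MITF promoter peak at any time. All 19 had at least 1 PU.1 site in their windows, with a median of 10 against 17 for the members. Over all protein-coding genes 86.0% had at least 1 PU.1 site, and the median was 9. The highest counts among them were 51 at Etv6, 31 at Elf2 and 29 at Elk3, and the lowest was 5. The members were chosen with such values known, so the difference between the 2 groups is a description without a test.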

How the data were processed

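ChIP-Seq of PU.1, MITF and IgG gave 7 libraries, grouped by their labels. Per the labels the authors used CASAVA 1.8, mapped with Bowtie2 to mm9 and found peaks with HOMER; other versions and settings are not given in the sources used here. Each deposited score is a signal, the tags of a peak scaled to a common library size and rounded to 1 decimal. Dividing it by the value of 1 tag in its list gave tags, to within 0.05 score units. Reads and input were not analysed here.

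Genes, exons and coding TSSs came from GENCODE M1 on NCBIM37, which is mm9 (Spi1 is named Sfpi1 there). Peaks that overlapped by at least 1 bp were joined into sites. Intervals are 95% exact Poisson or Clopper-Pearson and cover counting error only. Tags of overlapping peaks were compared by a two-sided exact binomial test whose expectation was the median ratio over all pairs. Adjustment of p-values was by Benjamini-Hochberg over all pairs of the 2 lists. The test was tried on simulated tags that held counting error only, so the trial does not cover variation between libraries. A call needed an adjusted p under 0.05 and 2-fold. Motifs were sought within 75 bp of a center, on either strand.

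Members and lists were chosen with earlier results of these data known. Named were all members, Spi1 sites within 1 kb of the TSS or 10 to 20 kb upstream, the highest PU.1 site of each member and list, sites within 1 kb of a member TSS, sites with MITF in 2 or more lists, called changes, and the 3 other ETS genes with most PU.1 sites. Other named sites were chosen after their values were seen. Alternatives were windows of 25 and 100 kb, sites nearest to the member's TSS, at least 2 times the lowest score, no peaks over IgG peaks, centers within 100 bp, a reciprocal overlap of 50%, library size ratios, no fold limit, only 150 bp peaks, and, for Spi1, summed peaks and a 3 kb promoter. Leaving out the 36 h lists was added after seeing the data. Python 3.11.15, numpy 2.4.6, pandas 2.3.3, scipy 1.17.1 and matplotlib 3.10.9 were used.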

Additional observations from a re-analysis of the deposited data

How the results depend on the processing

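A score threshold of 2 times the lowest left 89 PU.1 sites and 3 MITF sites, raised the share of PU.1 sites found at all 3 times to 69.7%, and lowered the share with a MITF peak to 1.22% in MPs and 1.33% in OCs. Without the 36 h lists, 130 PU.1 and 13 MITF sites were left and 73.1% of PU.1 sites were in both remaining lists. Called PU.1 changes from MPs to 36 h numbered 4 with library size ratios and 1 with the score threshold, and from 36 h to OCs 1 MITF change was called with library size ratios. The shares of all pairs called at these settings are not given here. The cause of these shifts between settings was not tested beyond the number of peaks and lists left by each setting. The Spi1 promoter and upstream comparison kept its side of the threshold with summed peaks and with a 3 kb promoter. Pairs of 150 bp peaks could not be formed for PU.1 at 36 h, where 0 peaks are 150 bp wide. No paired analysis was possible because each condition has 1 sample. With 1 library per condition no value has a replicate error, and peaks under the lowest listed score are not seen. The lists' 36 h peaks differ in width, and binding was not linked to expression.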
